A study of Homo sapiens with 4 samples.

Results

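The array used here covers the starts of genes with design regions, stretches of DNA that the files name by chromosome, start and end and tile with short probes. Most of them have the same length, 2700 bp from start to end. The regions described here are the longer ones. They were chosen by length and probe content alone, as autosomal design regions of more than 2700 bp with at least 10 probes that match a single place in the genome (a count field of 1 in the files, read here as the number of matches). No measured ratio entered the rule, though earlier results of these data were known when the choice was made. Of 18028 design regions, 2039 were longer than 2700 bp and 1954 of these were autosomal. After 57 with too few single-match probes were left out, 1897 extended regions remained, with 55025 single-match probes. They were compared with 14269 autosomal regions of exactly 2700 bp that passed the same probe minimum. Single-match probes made up 97.8% of all probes in either set.

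Each of 4 two-colour arrays set anti-HA chromatin precipitates of induced HEK293 cells against those of uninduced cells. HEK293 cells, derived from human embryonic kidney, had been stably transfected with a transcription factor joined to the HA epitope and made when tetracycline is absent. Induced cells (Tet-) were kept for 48 h in tetracycline-depleted medium and uninduced cells (Tet+) for 48 h with tetracycline. Both kinds carry the transgene, both were fixed for 10 min in 1% formaldehyde, and both were precipitated with 5 µg of the same antibody from chromatin sheared to about 500 bp. For arrays 1 to 4 the labels name the induced cells Tet-, Tet4-, Tet10- and Tet13- and the uninduced cells Tet+, Tet3+, Tet7+ and Tet9+. They do not say whether these numbers stand for cultures, inductions or clones, nor whether the line is a single clone.

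In a ChIP-chip experiment, DNA crosslinked to a protein is recovered with an antibody, labelled and hybridised, and a probe near a bound site gives a higher signal in the precipitate that holds the protein. The ratio reported here is log2 of induced over uninduced, with each array centred on its probe median. A positive value thus means a higher ratio than at the middle probe of the array, and a negative value a lower one. Regions and windows called higher or lower in induced cells are so in this relative sense. Where start sites of neighbouring genes lie close together, a tiling design can merge their promoter windows into a longer stretch, though the files do not say how these regions were drawn. In divergent pairs, also called bidirectional promoters, the genes are transcribed away from each other and share the DNA between their start sites, which in the human genome often lies in a CpG island. The files hold neither gene names nor strands nor a genome build, and no sequence of that build was at hand, so it was not examined which extended regions are divergent pairs. They are therefore called extended regions, by their length, and are given by the positions in the files. No base sequences are shown.

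The lengths of the extended regions ran from 2701 to 8864 bp with a median of 3894 bp, and fell into a pair of peaks. One peak lay just above the standard length, with 379 regions of 2701 to 2900 bp. The other held 609 regions of 4000 to 4400 bp. Only 25 regions reached 5400 bp, the length of a pair of standard regions end to end. The classes of length used here were drawn after the position profiles had been seen: 590 regions of 2701 to 3200 bp, 1028 of 3201 to 4400 bp and 279 above 4400 bp. Their median numbers of single-match probes were 22, 31 and 37, against 21 in 2700 bp regions. Extended regions were spread over all autosomes, from 8.21% of the regions measured on chromosome 4 to 14.5% on chromosome 14, and were 11.7% of all autosomal regions measured. Another design region lay within 10 kb of 25.6% of the extended regions and of 19.3% of the 2700 bp regions.

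As a group, extended regions differed from standard ones by less than the spread between arrays. Their mean log2 ratios in arrays 1 to 4 were 0.048, -0.0093, -0.0355 and -0.032, and those of 2700 bp regions were -0.025, -0.0090, 0.017 and -0.028. The difference was 0.0042 ± 0.052 (SD, n = 4 arrays; exact two-sided sign-flip permutation p = 1), positive in array 1 and negative in the other 3. By array series, as the file names give it, it was 0.036 in arrays 1 and 2 (N39) and -0.028 in arrays 3 and 4 (N44). The same difference was -0.013 ± 0.041 for regions of 2701 to 3200 bp, 0.011 ± 0.060 for 3201 to 4400 bp and 0.018 ± 0.049 above 4400 bp, each smaller than its spread.

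A sign-flip test over 4 arrays cannot give a two-sided p below 0.13. Of the 32 such tests made here, 23 stood at that smallest value, and after Benjamini-Hochberg adjustment over the 32 the lowest value was 0.174. No difference tested this way could pass a threshold of 0.05, so the value in each array is given.

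Within the extended regions, the slope of the ratio on length was positive in all 4 arrays. The slope was 0.027, 0.013, 0.011 and 0.024 log2 per kb in arrays 1 to 4, a mean of 0.019 ± 0.0080 (n = 4, exact permutation p = 0.13, the smallest possible). As a description across the 1897 regions, which share arrays, the Spearman correlation of length and ratio was 0.088, 0.049, 0.056 and 0.096 in the 4 arrays. Mean probe length was 51.7, 51.8 and 51.7 bases in the 3 classes and 52.2 in 2700 bp regions.

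Single extended regions were called about as often as design regions in general. Tested against a ratio of 0 (limma, adjusted p threshold 0.05, over all 16831 design regions with enough probes), 193 extended regions were higher in induced cells and 229 lower, which is 10.2% and 12.1%. Over all design regions 11.4% were called higher and 14.8% lower. Higher calls made up 8.47, 11.6 and 8.60% of the classes in order of length, and lower calls 16.6, 10.8 and 7.17%. Without array 1 the calls numbered 122 higher and 198 lower, without array 2 they numbered 74 and 79, and without array 4 they numbered 67 and 61. The calls with a mean of 0.5 log2 or more in size were 13 above 0 and 8 below among the 1897 extended regions. Among the 14269 regions of 2700 bp they were 194 and 122, a larger share in both directions.

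The mean ratios of single regions varied less as regions became longer. Their standard deviation across regions was 0.212 for 2700 bp, 0.194 for 2701 to 3200 bp, 0.182 for 3201 to 4400 bp and 0.153 above 4400 bp, while the number of probes averaged rose as given above. The part of the probe number in this narrowing was not tested. Across the 1897 extended regions, the array pairs correlated with a median Pearson r of 0.620 (0.460 to 0.688), and across 2700 bp regions with a median of 0.578 (0.326 to 0.694). All of these pairs share probes, so the correlations describe how alike the arrays were.

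The clearest feature of the extended regions was a narrow trough in the middle of those about 4 kb long. In regions of 3201 to 4400 bp, single-match probes within 300 bp of the nearer end averaged 0.084 ± 0.045 (n = 4), with 0.11, 0.023, 0.12 and 0.080 in arrays 1 to 4. At 1800 to 2100 bp from the nearer end the mean was -0.16 ± 0.092, and at 2100 to 2400 bp, which only the centres of the longest of them reach, it was -0.32 ± 0.067. The latter rests on 388 probes in 311 regions and read -0.28, -0.25, -0.39 and -0.35. Both inner values were below 0 in all 4 arrays and below the value at the ends in each. Standard regions had means between -0.030 and 0.014 at every distance from their ends. They are too short to hold positions as far from an end as these inner values, so they cannot be compared there.

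**Figure D1:**
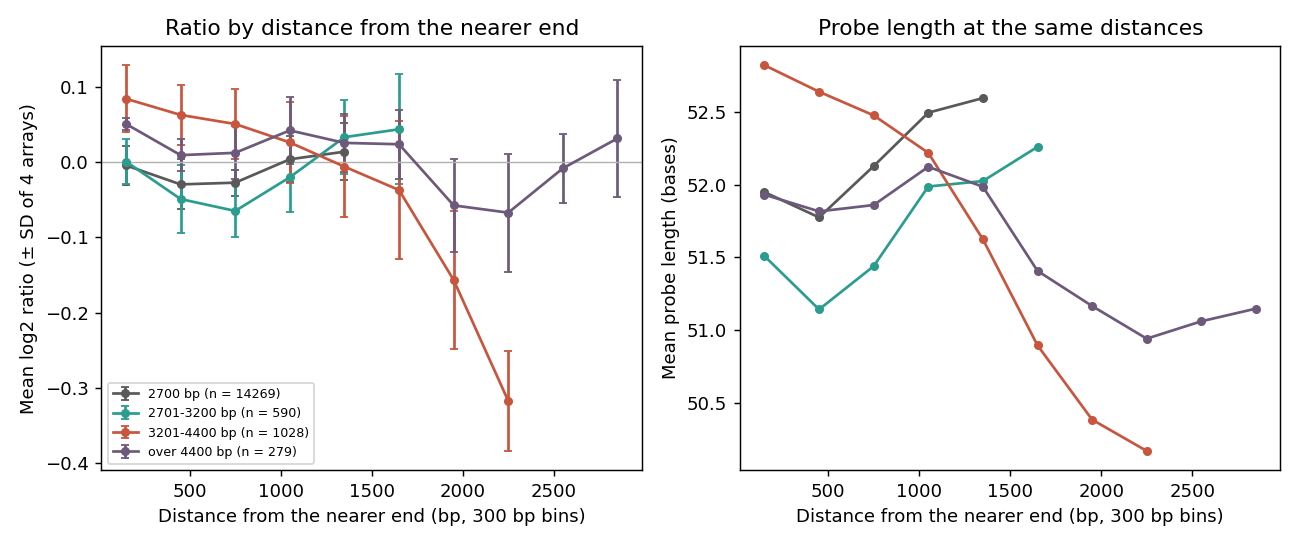
Left: mean log2 ratio of single-match probes in 300 bp steps from the nearer end of the design region, for 4 classes of region length, with the SD of the 4 arrays as error bars. Right: mean probe length in bases at the same distances. The 3201 to 4400 bp class goes from 0.084 at its ends to -0.32 at 2100 to 2400 bp, where the probes are also the shortest.

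The 100 bp step with the lowest mean lay at different places in the classes of length. Each value is the lowest of many steps and is given without a spread between arrays, and some classes hold few regions. Whether the place or depth of this step differs between classes beyond noise was not tested. In regions of 2701 to 2900 bp the lowest 100 bp step, with a mean of -0.086, began 500 bp from the nearer end. The highest began 1400 bp from it, a distance that only the longest of these regions reach, at their centre. In regions of 2901 to 3100 bp the lowest step began at 800 bp (-0.16). The next 3 classes showed no regular order, with the lowest step at 1600 bp (-0.15) for 3101 to 3300 bp, 1100 bp (-0.13) for 3301 to 3500 bp and 1400 bp (-0.081) for 3501 to 3700 bp. From 3701 bp upward it began 1900 to 2300 bp from the nearer end in each class of 200 bp. It read -0.23 in regions of 3701 to 3900 bp and -0.28 in those of 3901 to 4100 bp. The values were -0.29 for both 4101 to 4300 bp and 4301 to 4500 bp, where this distance is the centre of the region. In still longer regions the low point was shallower, at -0.11 for 4501 to 4700 bp, -0.17 for 4901 to 5100 bp and -0.091 for all above 5300 bp. The shortest extended regions thus had their highest mean at the centre, and regions near 4 kb their lowest. A highest mean at the centre was not particular to short extended regions. In 2700 bp regions the profile was lowest at 300 to 600 bp from the nearer end (-0.030) and highest at 1200 to 1500 bp (0.014).

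**Figure D2:**
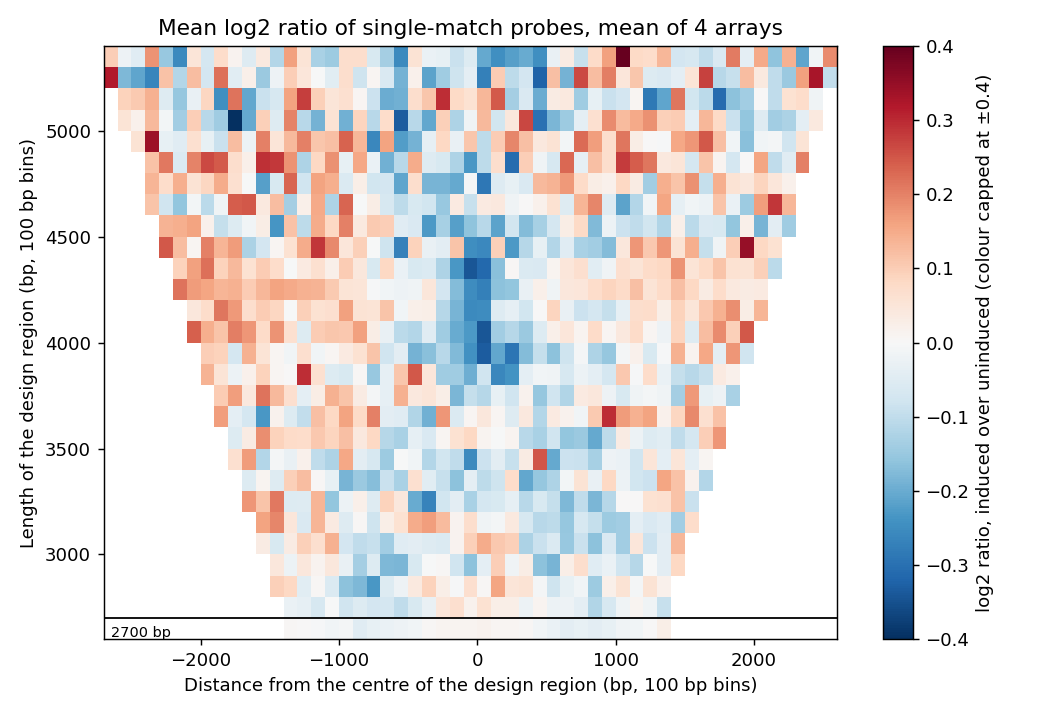
Mean log2 ratio over the 4 arrays by distance from the centre of the region (horizontal, 100 bp bins) and by region length (vertical, 100 bp bins), with 2700 bp regions below the line. Colours are capped at 0.4 either way, and cells with under 5 probes are blank. A column of low values at the centre spans lengths of about 3900 to 4500 bp.

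The trough was followed at finer resolution in the 704 regions of 3901 to 4500 bp. Probes within 100 bp of the centre had a mean ratio of -0.28 ± 0.083 (n = 4), with -0.22, -0.20, -0.38 and -0.31 in arrays 1 to 4. Probes 300 to 700 bp from the centre averaged -0.022 ± 0.092, with 0.078, 0.029, -0.12 and -0.073. Those 1000 to 2300 bp away averaged 0.090 ± 0.051, with 0.13, 0.021, 0.13 and 0.082. The centre was thus lower than its far flanks in all 4 arrays, by 0.35, 0.22, 0.51 and 0.39 log2, a 1.29-fold difference on average. Against the near flanks the difference was -0.26 ± 0.032, with -0.30, -0.23, -0.26 and -0.24 (exact permutation p = 0.13, the smallest possible). Arrays 3 and 4 also had a wider shoulder of low values between 300 and 700 bp that arrays 1 and 2 lacked. Measured from those near flanks, the depth differed little between arrays.

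Probe length moved with position. It was 52.8 bases on average within 300 bp of the ends of the 3201 to 4400 bp regions and 50.2 at 2100 to 2400 bp, where 96.9% of probes were of the minimum length of 50 bases. With 50-base probes alone, the centre of the 3901 to 4500 bp regions stood at -0.27 ± 0.091 and the far flanks at 0.14 ± 0.046. The difference was -0.41 ± 0.060, with -0.41, -0.33, -0.47 and -0.43 in the 4 arrays, as large as with all probes and less spread. After the mean of each probe length was subtracted within each array, it was -0.40 ± 0.053. Base composition itself could not be read without sequences, and its part in the trough was not tested.

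**Figure D3:**
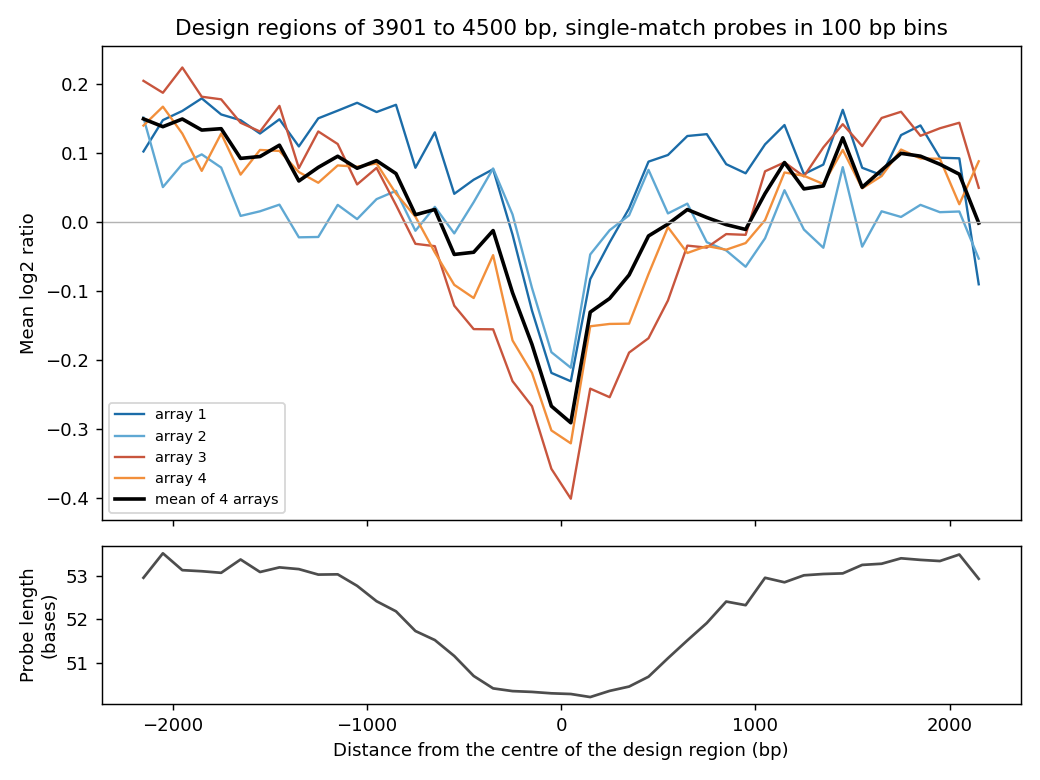
Upper panel: mean log2 ratio of single-match probes by distance from the centre, in 100 bp bins, for the 704 design regions of 3901 to 4500 bp, with one line per array and their mean in black. Lower panel: mean probe length. All 4 arrays reach their lowest value in the bin just right of the centre, between -0.21 and -0.40, while probe length stays near 50.3 bases over a wider stretch.

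To ask which regions carried the trough, the mean of the central 900 bp minus that of the outer 900 bp at both ends was taken in each region, a measure that 2700 bp regions also have. The measure was chosen after the profiles of these same probes had been seen. It describes how the trough is spread over regions and is no separate test of it. In extended regions of 3201 to 4400 bp the central zone averaged -0.11 ± 0.082 and the outer zones 0.071 ± 0.044. Their contrast was -0.18 ± 0.099 (n = 4), with -0.14, -0.072, -0.30 and -0.21 in arrays 1 to 4. In 2700 bp regions it was 0.033 ± 0.044. The contrast of the 3201 to 4400 bp class was lower than that of the standard regions by 0.19, 0.040, 0.36 and 0.27 log2, a mean difference of -0.21 ± 0.13 (exact permutation p = 0.13, the smallest possible). It was smallest in array 2 and was -0.11 in series N39 and -0.31 in series N44. With 50-base probes alone it was -0.35 ± 0.092, with -0.28 in series N39 and -0.41 in series N44. The outer zone pools both ends, and 168 of these 1004 regions had fewer than 3 single-match probes at one of them. In the 836 regions with at least 3 probes at each end, a limit added after the data were seen, the contrast was -0.18 ± 0.10.

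The contrast was positive in short extended regions and weakly negative in the longest. Regions of 2701 to 3200 bp had a contrast of 0.063 ± 0.058, which exceeded that of standard regions by 0.030 ± 0.017 and in all 4 arrays. Above 4400 bp it was -0.062 ± 0.068, and its difference from standard regions, -0.095 ± 0.10, was positive in array 2 and negative in the others. With 50-base probes alone the contrast of this longest class was -0.12 ± 0.063 and below 0 in all 4 arrays. Of its 263 regions, 24.0% were called lower in the centre and 15.6% higher (limma, adjusted p threshold 0.05).

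Region by region, 356 of 1004 regions of 3201 to 4400 bp were called lower in the centre than at the ends and 71 higher (limma, adjusted p threshold 0.05, over 15848 design regions). These are 35.5% and 7.07%, and over all design regions the background was 16.4% lower and 19.2% higher. In the 2700 bp regions the shares were 15.0% and 20.1%. Of the 1004 regions, 40.8% had a lower centre in all 4 arrays, against 22.0% of the standard regions. By length, the share called lower in the centre went from 9.60% at 2701 to 2900 bp to 48.4% at 3901 to 4100 bp, 37.3% at 4101 to 4300 bp and 42.6% at 4301 to 4500 bp. It was 25.9% at 4501 to 4700 bp. Leaving out each array in turn gave 256 to 328 lower calls in the class. Without array 1 there were 39 higher calls, and without array 2 there were 53.

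**Figure D4:**
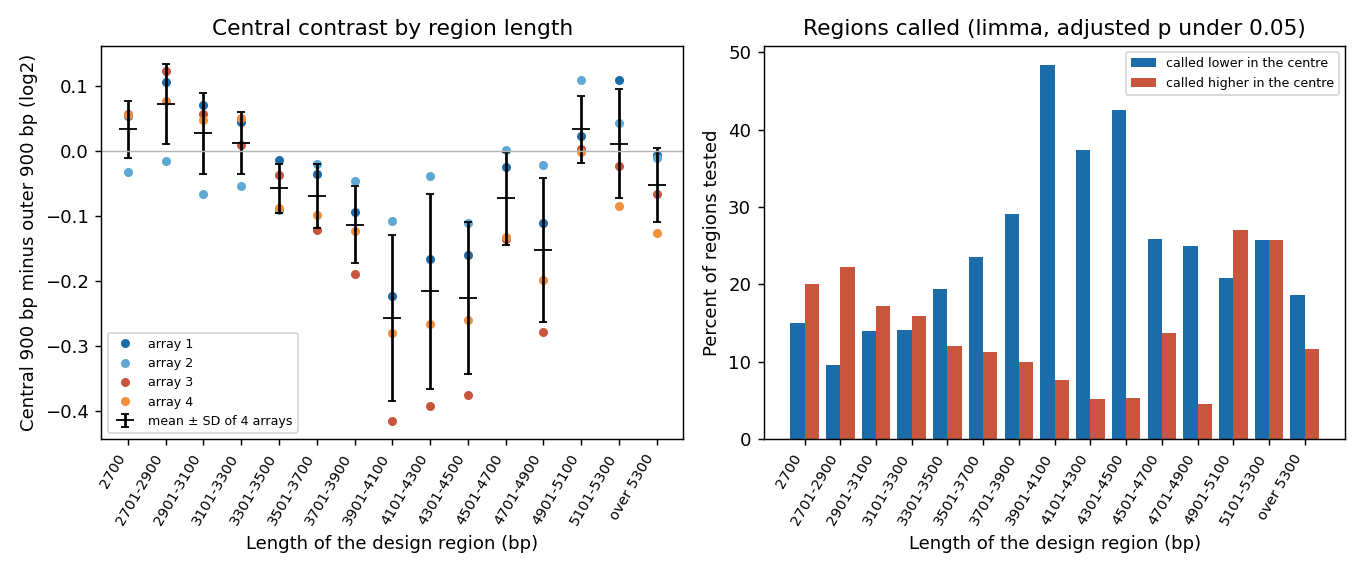
Left: mean of the central 900 bp minus the outer 900 bp at both ends, by region length, with a point per array and the mean ± SD of 4 arrays. Right: percent of regions called lower (blue) or higher (red) in the centre by limma at an adjusted p under 0.05. Lower calls reach 48.4% in regions of 3901 to 4100 bp and stand at 15.0% in 2700 bp regions.

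The regions with the deepest centres, named after their values were seen, were between 3832 and 4321 bp long. The first lay on chromosome 8 at positions 38151062 to 38155383 (4321 bp, 29 probes). Its central 900 bp read -0.54, -0.56, -0.67 and -0.60 in arrays 1 to 4, and its outer 900 bp read 0.19, 0.59, 1.08 and 0.64. The contrast was -1.22 ± 0.42 (n = 4, adjusted p = 1.12e-05, limma), yet the mean of the whole region was 0.044 and was not called (adjusted p = 0.677, limma). In steps of 500 bp from its lower end, the ratio was 0.53 at 0 to 500 bp, -0.68 at 2000 to 2500 bp and 0.44 at 3000 to 3500 bp. Every array was above 0 in the outer of these windows and below 0 in the central one. Its ends averaged 0.53 ± 0.27 and 0.72 ± 0.48, over 4 probes each.

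Both ends were also above 0 on average, with at least 3 probes each, on chromosome 6 at 110606116 to 110610100 (contrast -1.10 ± 0.29) and on chromosome 19 at 46593343 to 46597296 (-1.08 ± 0.26). On chromosome 6 the ends averaged 0.38 ± 0.32 and 0.58 ± 0.19, and on chromosome 19 they averaged 0.10 ± 0.10 and 0.64 ± 0.17. The lower end had 1 array slightly below 0 in both regions. The other 2 of the 5 were measured mainly at their lower end. The region on chromosome 8 at 145483887 to 145488128 (-1.13 ± 0.29) had no single-match probe within 900 bp of its upper end. With all probes its contrast was smaller, at -0.61 ± 0.16, and still called (adjusted p = 0.000618, limma). Its windows of single-match probes went from 0.77 at 0 to 500 bp to -0.42 at 1000 to 1500 bp. They were at -0.205 at 3000 to 3500 bp, a step rather than a trough over the part measured. The region on chromosome 3 at 12856449 to 12860281 (-1.09 ± 0.24) had 1 single-match probe at its upper end, which averaged -0.26 ± 0.54. In all 5 the central zone was below 0 and the pooled outer zone above 0 in every array. Their means over the whole region lay between -0.23 and 0.14, and of the 5 only that on chromosome 3 was called as a whole (adjusted p = 0.0416, limma).

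The 5 regions with the highest centres, also named after their values were seen, were shorter, between 2711 and 3062 bp. On chromosome 2 at 24160659 to 24163432 (2773 bp, 17 probes) the central zone read 0.79, 0.18, 1.03 and 0.76 and the outer zones -0.57, -0.64, -0.32 and -0.44. The contrast was 1.18 ± 0.25 (adjusted p = 5.74e-06, limma). Another lay on chromosome 5 at 68744498 (1.11 ± 0.41), with no single-match probe within 900 bp of its lower end. With all probes its contrast was 0.99 ± 0.32. The rest lay on chromosome 5 at 52117330 (1.04 ± 0.16), chromosome 2 at 25244456 (1.10 ± 0.25, with 2 single-match probes at its upper end) and chromosome 21 at 39737466 (1.07 ± 0.46). In all 5 the central zone was above 0 in every array. The pooled outer zone was below 0 in every array except array 4 of the region on chromosome 21, at 0.016.

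Called windows followed the same course along the regions. They average the same probes as the profiles, so they describe the same pattern and are no separate test of it. Of 11382 windows of 500 bp with at least 3 probes in extended regions, 1785 were higher in induced cells and 1875 lower (limma, adjusted p threshold 0.05), which is 15.7% and 16.5%. Over all 70655 windows of the array the shares were 15.4% higher and 17.1% lower, so the totals were near the background. Their places were not even. In regions of 3201 to 4400 bp, windows in the outermost 500 bp were called higher in 23.4% and lower in 14.1%, and windows 2000 to 2500 bp from the nearer end were called higher in 2.91% (8 of 275) and lower in 30.2% (83 of 275). In 2700 bp regions the shares stayed between 14.5 and 17.4% higher and 17.0 and 17.7% lower at every distance. Series N44 alone called 763 windows higher and 754 lower in extended regions, and without array 1, 2 or 4 the counts were 1114, 1296 and 1307 higher and 1260, 1167 and 1086 lower.

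Higher and lower windows occurred together in 592 extended regions (31.2%) and in 16.1% of 2700 bp regions, and no window was called in 272 (14.3%) and 24.4%. Longer regions hold more windows, so these shares cannot be compared directly. The largest number of called windows in an extended region was 6 higher or 5 lower.

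The ends of a region resembled each other less than one end resembled itself across arrays. Across 906 regions of 3201 to 4400 bp, the means of the 1.35 kb at either end correlated at 0.182 within an array and at 0.0973 between different arrays, and the same end correlated at 0.608 between different arrays. Above 4400 bp (247 regions) the values were 0.123, 0.0233 and 0.515. In 2700 bp regions, whose ends adjoin, they were 0.190, 0.0755 and 0.571. The same-end values are those of the lower end, read by the same probes in every array, while opposite ends are read by different probes. The values are therefore not a like comparison. Regions share arrays, and these correlations describe the arrays only.

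The regions with the highest and lowest mean over their whole length were taken from those that passed the test and kept 1 sign in each of the 4 arrays, ranked by that mean. The highest lay on chromosome 10 at positions 35521860 to 35525335 (3475 bp, 26 probes). Arrays 1 to 4 read 0.60, 0.63, 1.15 and 0.86, a mean of 0.81 ± 0.25 or 1.75-fold (adjusted p = 0.00075, limma). All 6 of its windows were called higher, from 0.61 at 500 to 1000 bp from its lower end to 1.20 at 3000 to 3500 bp, where the arrays gave 1.12, 0.99, 1.48 and 1.21. In the first 500 bp array 1 read 0.038 and the others 0.93 to 1.105. Its probes were long, 55.7 bases on average.

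Next came chromosome 17 at 52686729 to 52689872, with 0.88, 0.43, 0.80 and 0.35 (mean 0.62 ± 0.26), and chromosome 5 at 43636381 to 43639563, with 0.77, 0.26, 0.90 and 0.44 (0.59 ± 0.29). In both, arrays 1 and 3 read well above arrays 2 and 4. The chromosome 5 region stood at 0.27 and was no longer called (adjusted p = 0.0575, limma) after the median of neighbouring 2700 bp regions was subtracted. Tighter agreement was found on chromosome 6 at 49536854 to 49541011 (0.60, 0.59, 0.56 and 0.50) and on chromosome 19 at 47038663 to 47042548 (0.51, 0.58, 0.56 and 0.53). Their means were 0.56 ± 0.044 and 0.55 ± 0.033. After the same subtraction the former stood at 0.72 ± 0.33 and the latter at 0.34 ± 0.087 (adjusted p = 0.00178 and 0.00595, limma). The arrays were thus further apart in both regions, most on chromosome 6.

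The region on chromosome 12 at 42436846 to 42441056 was both high as a whole, at 0.56 ± 0.11, and low in its centre, with a contrast of -0.85 (adjusted p = 0.000124, limma), 5 higher windows and 1 lower. The other 4 of the 10 highest lay on chromosome 4 from 41026 (0.53 ± 0.22, and 0.35 in series N39 alone), chromosome 11 from 31485700 (0.52 ± 0.17), chromosome 9 from 135272485 (0.51 ± 0.084) and chromosome 1 from 111847133 (0.51 ± 0.15). None of the 10 highest regions held more than 1 window called lower.

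The lowest region lay on chromosome 6 at positions 50097107 to 50099853 (2746 bp, 18 probes). Arrays 1 to 4 read -0.98, -0.82, -0.59 and -0.70, a mean of -0.77 ± 0.17 or 1.71-fold lower (adjusted p = 0.000515, limma), and all 3 of its windows were called lower. Its probes averaged 57.4 bases. It was followed by chromosome 4 at 20460884 to 20463591, with -0.88, -0.48, -0.56 and -0.48 over 10 probes. Regions on chromosome 19 at 18541413 to 18544167 (-0.59 ± 0.043) and chromosome 6 at 13922245 to 13924979 (-0.57 ± 0.039) had the closest agreement among arrays. These 4 lowest were all between 2707 and 2754 bp long. They also rested on few single-match probes, 18, 10, 12 and 17 in this order. The median of the 2701 to 3200 bp class was 22.

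Of the other 4 lowest, those on chromosome 1 from 244794228 (4158 bp) and from 6535820 (3548 bp) had means of -0.53 ± 0.070 and -0.53 ± 0.050. After subtraction of neighbouring 2700 bp regions the former stood at -0.20 (adjusted p = 0.0492, limma). A region on chromosome 10 from 6059043 had -0.52 ± 0.13. On chromosome 12 from 20857673 the arrays read -0.76, -0.70, -0.11 and -0.55, so that array 3 lay near 0 and the mean was -0.53 ± 0.29. Series N44 alone gave -0.33 there. No array crossed 0 in any of the 8, by the rule that chose them.

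**Figure D5:**
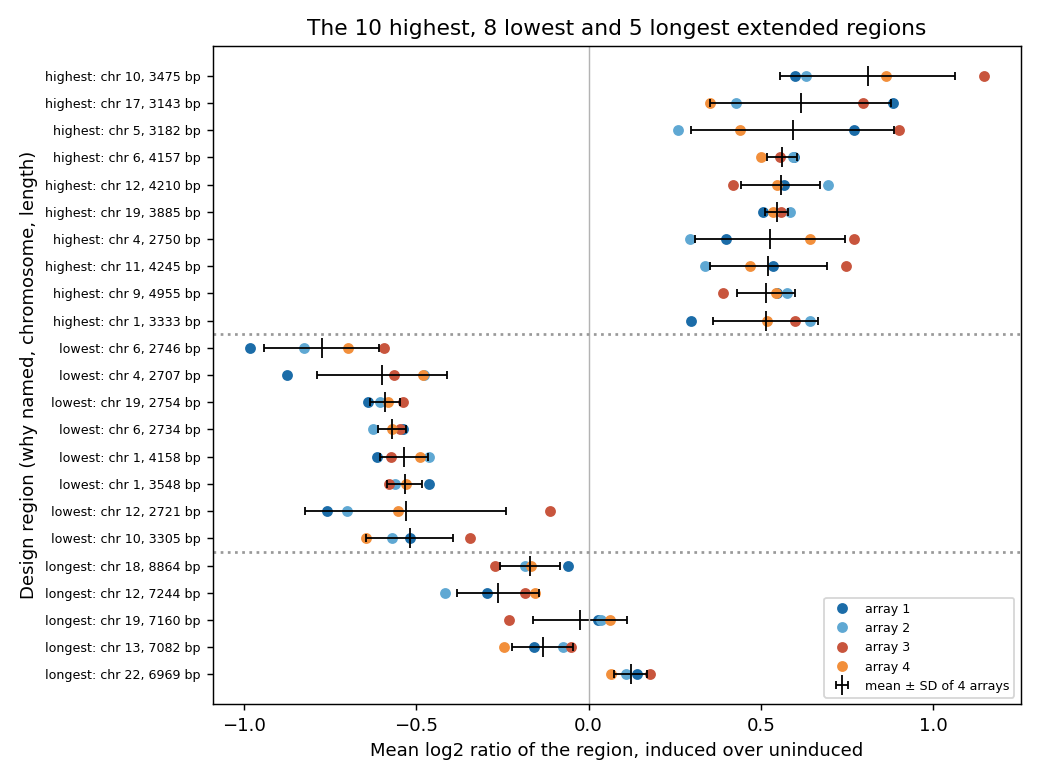
Mean log2 ratio of the 10 highest, 8 lowest and 5 longest extended regions, with a point for each of the 4 arrays and the mean ± SD as bars. The highest stands at 0.81 and the lowest at -0.77, and the 5 longest lie between -0.26 and 0.12.

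The 5 longest regions, named for their length, were closer to 0. The longest of all lay on chromosome 18 at 3435407 to 3444271 (8864 bp, 71 probes), with -0.058, -0.18, -0.27 and -0.17 in arrays 1 to 4. Its part at the lower end averaged 0.029 ± 0.046, the middle part -0.22 ± 0.13 and the part at the upper end -0.28 ± 0.11, each part being of equal length. Only the region on chromosome 12 at 113325586 to 113332830 was called as a whole, at -0.26 ± 0.12 (adjusted p = 0.0225, limma). That call was lost without array 1, 2 or 4 (adjusted p = 0.0536, 0.117 and 0.0679, limma). It was also lost in series N44 alone, in the central 2700 bp and with the median over probes (adjusted p = 0.230, 0.153 and 0.0517, limma). The test against a minimum change of 0.5 log2 did not call it either. The other settings that covered this region kept the call.

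In 2 of the 5, a ratio over 0.5 log2 in size lay at the lower end alone. On chromosome 22 at 25205051 to 25212020 the lower end averaged 0.51 ± 0.14 (0.37, 0.65, 0.62 and 0.41), and the middle and upper parts -0.029 ± 0.066 and -0.033 ± 0.11. On chromosome 13 at 113150958 to 113158040 the lower end averaged -0.55 ± 0.11 (-0.67, -0.60, -0.42 and -0.50), the middle 0.17 ± 0.20 and the upper end -0.13 ± 0.12. The whole regions had means of 0.12 ± 0.048 and -0.13 ± 0.088 and were not called. The fifth, on chromosome 19 at 40924691 to 40931851, had a mean of -0.026 ± 0.14.

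At the edges of the selection, the 73 regions of 2701 to 2710 bp averaged -0.0068 ± 0.023, beside -0.011 ± 0.021 for those of 2700 bp. The 19 extended regions with 10 or 11 single-match probes were lower, at -0.12, -0.017, -0.12 and -0.13 in arrays 1 to 4 (mean -0.095 ± 0.052), than all extended regions (mean -0.0070 ± 0.039), in each array. The 6 regions with 8 or 9 such probes, which were left out, averaged -0.069 ± 0.031.

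By chromosome, the mean ratio of extended regions was above 0 in all 4 arrays on chromosomes 1, 5, 6 and 12 and highest on chromosome 12 (0.089 ± 0.036, 102 regions). It was below 0 in all 4 on chromosomes 4, 7, 10, 14, 16, 18, 21 and 22, and lowest on chromosome 4 (-0.10 ± 0.043, 56 regions). These chromosome means spanned a wider range than the means of the length classes, -0.025 to 0.0065. Chromosomes are more numerous groups with fewer regions each, so the ranges are not a like comparison. The 2700 bp regions were not averaged by chromosome, so whether these levels are particular to extended regions was not tested.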

How the data were processed

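Chromatin from induced and uninduced HEK293 cells was compared on 4 arrays, which form the only group. The authors deposited, for each probe, the log2 ratio of the 635 nm (Cy5, induced) to the 532 nm (Cy3, uninduced) signal, written by NimbleScan per the file headers and source column. The base of the logarithm was taken as 2. Which genome build, software version or background correction was used is not stated in the labels or headers. Dyes were not swapped, per the labels, so an effect of the dye on a probe cannot be told apart from one of induction. Agreement of all 4 arrays does not separate them. Each header gives a biweight mean (-1.05 to -0.586), read as already subtracted, since probe medians were -0.01 to 0.0. Probe SDs were 0.698 to 0.752 log2.

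Each array was centred on its probe median, and single-match probes were averaged per region, zone or window (at least 10, 3 and 3 probes). Intercept-only limma 3.58.1 (R 4.3.3) tested these means over all 16831 regions, 15848 contrasts or 70655 windows, with Benjamini-Hochberg adjustment. Differences between sets of regions were tested over arrays by exact sign flips. On simulated data with 100 features changed by 1 log2, limma recovered 100, 100 and 95 of them for regions, contrasts and windows. At 0.5 log2 it recovered 88, 43 and 9. Far more features were called in the data than were changed in the simulation, which makes the adjusted threshold less strict there. These counts therefore do not give the recovery in the data. The labels number the cells of arrays 2 to 4 without saying whether they are separate cultures, and p-values then measure only how much these 4 arrays vary, which may be technical. Between 0.555 and 0.731% of probes had equal values in a pair of arrays, so no file repeats another. The number of arrays limits the precision.

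Named regions are the 10 highest and 8 lowest extended regions past the threshold with 1 sign in all arrays, the 5 longest, and sets at the edges of the selection. Extended regions, the tests and lists were chosen with earlier results of these data known. The central contrast and length classes were added after the position profiles were seen. Regions outside the autosomes entered the fits only. The name of the tagged factor is not reported here.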

Additional observations from a re-analysis of the deposited data

Results flagged for a closer look

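Of 49 values examined for 1 array far from the other 3 (Dixon's ratio, 95% level), 2 stood out, and chance alone gives about 2. For the long region on chromosome 19 from 40924691, array 3 gave -0.229 and the other arrays 0.0274 to 0.0626. For the central contrast of 2700 bp regions, array 2 gave -0.0319 and the others 0.0538 to 0.0568. The source of these gaps was not tested.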

How the results depend on the processing

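Of the summary values recomputed under other settings, 142 moved by less than 1.5 times (counts) or by less than the SD between arrays (means), and 27, given here, by more. No call among the 33 named regions and contrasts changed direction. A move within that SD can still be large: in series N39 alone the difference between middle and end was -0.0488 against -0.11, and the extended minus 2700 bp difference changed sign between series. The test against a minimum change of 0.5 log2 (limma) left 0 extended regions higher and 0 lower, with 1 and 1 at an unadjusted p under 0.05, and 14 windows higher and 5 lower. For the central contrast of 3201 to 4400 bp regions it left 6 lower and 0 higher, the latter with 8 at an unadjusted p under 0.05. Series N44 alone gave 93 regions higher and 150 lower, 763 windows higher and 754 lower, and 30 higher contrasts, and series N39 alone gave 89 regions lower. Regions called lower numbered 151 after subtraction of neighbouring 2700 bp regions and 131 at lengths of 3200 bp or more, where fewer regions entered. With 1000 bp windows, fewer in number, 1018 were higher and 1040 lower. With 1 array at a time left out there were 67 to 227 regions higher, 61 to 205 lower, 1114 to 1766 windows higher, 1086 to 1583 lower, and 39 to 75 higher contrasts. Probes of 50 bases only, a setting added after the data were seen, gave 42 higher contrasts and moved the difference between probes over 1.35 kb from the nearer end and those within 900 bp of it, over all extended regions, from -0.11 to -0.193. limma with trend and robust moderation called 147 regions higher and 308 lower, against 193 and 229. Trimming extended regions to 2700 bp raised the lower calls to 291 (first), 310 (last) and 307 (central). Except where fewer features or arrays entered, the cause was not tested. The test against 0 is itself paired, since each array holds an induced and an uninduced precipitate. Raw intensities were not analysed here, and the limit set by signal against background is not known.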
